A study of Drosophila melanogaster with 4 samples.

Results

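Of the 5135 regions enriched for ZW5 in Drosophila melanogaster embryos, 821 (16.0%) lay on the left arm of chromosome 2 (2L), in the list that the authors made for both replicates, called the combined list here. These 821 regions were chosen by their arm alone. The 4 other large arms, 2R, 3L, 3R and X, held 4016 regions and serve for comparison. ZW5 was precipitated with an antibody from formaldehyde-crosslinked chromatin of wild-type Oregon-R embryos aged 14 to 16 h, and the DNA was sequenced (ChIP-seq), with input chromatin of the same strain and stage sequenced beside it. The labels give 2 ChIP and 2 input libraries of whole embryos, so the regions are a sum over all cell types of the embryo. Each ChIP replicate also has its own list, with 134 regions on 2L in replicate 1 and 191 in replicate 2. The labels do not say whether the replicates came from separate embryo collections.

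ZW5 (zeste-white 5) is a protein with C2H2 zinc fingers, which read DNA sequence. It is known as a protein of the scs boundary element, which lies on another arm, beside a heat shock locus. Boundary elements, or insulators, are known to keep an enhancer from acting on a promoter on their other side and to bring distant DNA together in loops when their proteins contact each other. Coordinates below are those of FlyBase release 5, on which 2L runs from the telomere at low coordinates to the centromere at high ones. A genome sequence and annotation of this release were not used here, so positions are given without genes or sequence.

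Each region carries a score that the authors deposited, on a scale that the file headers do not state, and the score is used here to rank and divide regions within a list. A region with a score of at least 1 is called strong and any other weak. On 2L 50 of 821 regions were strong (6.09%, 95% Wilson interval 4.65 to 7.94), against 6.54% of the whole combined list, which also holds unplaced and heterochromatic scaffolds, and 3.76% of the 4 other large arms. The difference between 2L and these arms was 2.33 percentage points (95% Newcombe interval 0.757 to 4.26). By arm the share was 4.25% on 2R, 4.16% on 3R, 4.04% on 3L and 2.37% on X. The Wilson intervals of 2R, 3R and 3L overlapped that of 2L, while that of X did not. Read depth is unknown, and every interval given here covers counting error only and takes regions as independent of each other.

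The strong regions of 2L came in 2 kinds. Of the 50, 42 were overlapped by a region of both replicates (84.0%, Wilson interval 71.5 to 91.7), 8 by neither, and 0 by exactly 1 replicate, which allows a share of up to 6.00%. In the whole combined list 46.7% of the strong regions were overlapped by both replicates, and on the 4 other large arms 76.2%. By arm this share was 88.7% on 3R, above that of 2L, 81.6% on 3L, 69.2% on 2R and 47.6% on X. The difference of 7.84 percentage points between 2L and these arms had an interval that spanned 0 (-6.08 to 18.5). The 42 were wide, from 2339 to 7155 bp, with a median score of 3.08. The 8 were narrow, from 1001 to 1361 bp, with a median score of 1.60, so that the widths of the 2 kinds did not overlap. The narrowest region of either replicate list was 1301 bp, and 7 of the 8 were narrower than that. On the 4 other large arms the strong regions overlapped by both replicates were likewise wide, from 2307 to 9991 bp, and the 35 overlapped by neither ran from 1001 to 1579 bp.

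**Figure D1:**
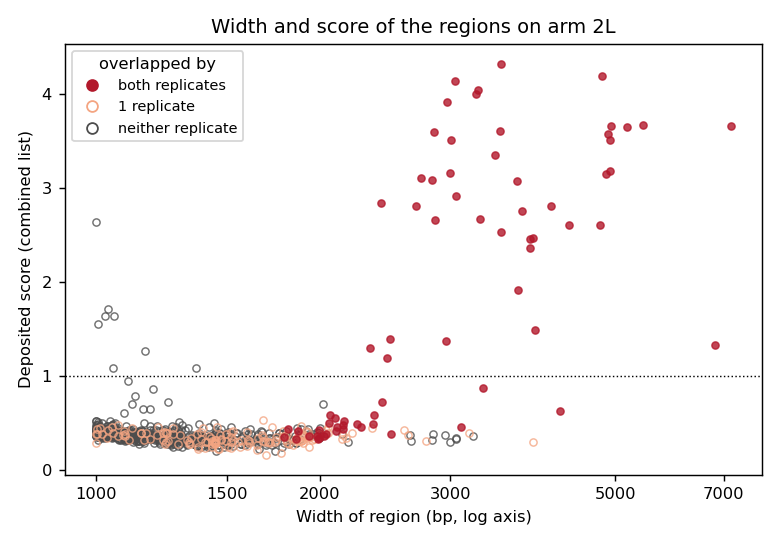
Width (bp, log axis) and deposited score of the 821 regions of arm 2L in the combined list, 1 point per region, coloured by overlap with the replicate lists. The 42 strong regions overlapped by both replicates are all at least 2339 bp wide, and the 8 strong regions overlapped by neither are at most 1361 bp wide; the dotted line marks a score of 1.

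The highest score on the arm was 4.32, at 1971932 to 1975438, and the region there scored 4.08 in replicate 1 and 4.59 in replicate 2. Next came 12432926 to 12437720, with 4.19 in the combined list, 4.04 in replicate 1 and 4.40 in replicate 2. The region at 15066442 to 15069480 scored 4.13 in the combined list, 4.12 in replicate 1 and 4.36 in replicate 2. They lay at 8.58%, 54.0% and 65.5% of the length of the arm from the telomere. The region at 4943782 to 4947050 had a score of 4.04, the one at 7025566 to 7028810 a score of 4.00 and the one at 20654754 to 20657718 a score of 3.91. This region at 3.91 was the last strong one towards the centromere that both replicates overlapped. All 15 regions with the highest scores on 2L scored at least 3.51, were overlapped by both replicates and stood among the 17 highest of the arm in each replicate list. Among the 50 highest scores of the whole combined list, 15 were on 2L, which held 16.0% of all its regions and 50 of its 336 strong ones.

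The remaining 9 of these 15 lay at 8155626 to 8161080 with a score of 3.67, at 11986428 to 11991364 with 3.66 and at 18692994 to 18700148 with 3.65, this last one being the widest region of the arm at 7155 bp. The others were 1162386 to 1167564 with 3.65, 18687562 to 18691058 with 3.61 and 5947968 to 5950814 with 3.59. The last 3 were 12037138 to 12042034 with 3.58, 12691474 to 12696398 with 3.51 and 4186230 to 4189234 with 3.51. Of the 15, 8 stood in the groups of close strong regions described below.

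**Figure D2:**
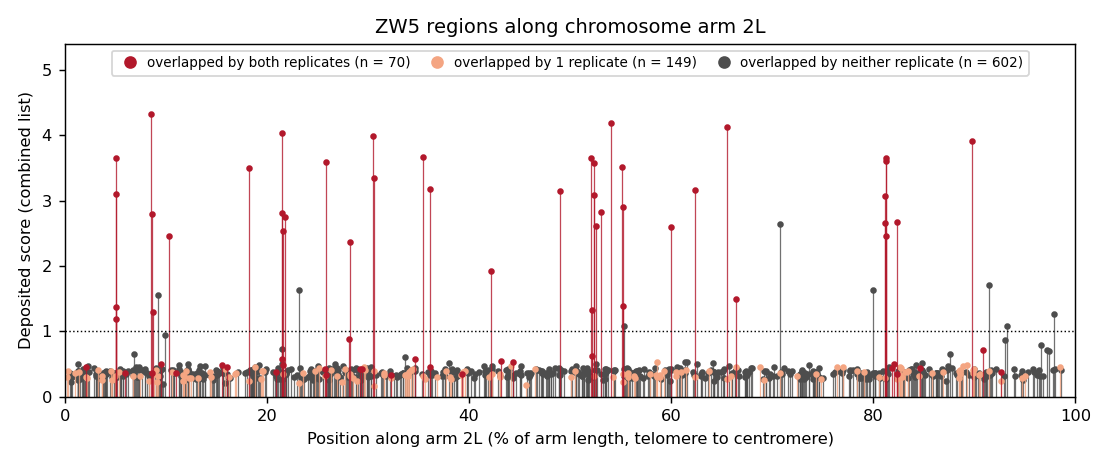
Deposited score of each of the 821 regions against its position on arm 2L, as a percentage of the arm's length from the telomere to the centromere, coloured by overlap with the replicate lists. Strong regions (score of at least 1, dotted line) number 50, of which 25 stand in groups and 25 alone or as a pair, over a dense floor of weak regions.

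The replicates ranked the 42 strong shared regions in much the same order. Replicate 1 gave them scores from 0.921 to 4.12 and replicate 2 scores from 1.46 to 4.59. Across these 42 regions, which share their libraries, Spearman's rho between the replicates was 0.962 and Pearson's r 0.976, as a description. The centres of the 2 replicate regions lay a median of 44.5 bp apart, and within 250 bp for 39 of the 42. Over the 115 strong shared regions of the 4 other large arms that median was 60.0 bp, with 92 within 250 bp. Overlap with the same region of the combined list already limits these distances. On 2L, 3 of the 42 regions spanned more than 1 region of a replicate. The region at 8304684 to 8309600 spanned 2 regions of replicate 1 and 1 of replicate 2, as did that at 18692994 to 18700148, while the one at 12001986 to 12008794 spanned 2 of each.

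Every strong replicate region on 2L was also in the combined list. All 41 of replicate 1 overlapped a strong region of the combined list, as did 43 of the 45 of replicate 2. The other 2 met a weak one. Of these, 6479915 to 6482310 scored 1.47 in replicate 2 and 0.878 in the combined list, and 20917611 to 20920015 scored 1.11 in replicate 2 and 0.721 in the combined list. All 41 strong regions of replicate 1 on 2L were overlapped by replicate 2 and all 45 of replicate 2 by replicate 1. Of the weak regions, 32 of 93 in replicate 1 (34.4%, Wilson interval 25.5 to 44.5) and 26 of 146 in replicate 2 (17.8%, 12.5 to 24.8) were overlapped by the other replicate. The same boundary of 1 was used in every list, although the scales are not stated, so strong need not mean the same in each. The lowest scores of the 42 strong shared regions were 0.921 in replicate 1 and 1.46 in replicate 2.

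The 5 highest scores that neither replicate overlapped were 2.64 at 16280398 to 16281398, 1.71 at 21048290 to 21049326, 1.64 at 5344048 to 5345104, 1.64 at 18408050 to 18409076 and 1.55 at 2118910 to 2119914. Many of these regions had tied scores. Of the 8 strong regions overlapped by neither, 6 shared their score, to 9 decimals, with at least 1 other region of the combined list, while 0 of the 42 overlapped by both did, which allows a share of up to 7.14%. On the 4 other large arms 27 of the 35 overlapped by neither and 0 of the 115 overlapped by both had tied scores. The regions just above the boundary, at 1.09 for 12743038 to 12744092 and 1.09 for 21463582 to 21464942, were of this narrow kind, as was the one just below it, at 0.9496 for 2293820 to 2294924.

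Strong regions of 2L stood in groups. Strong regions whose neighbouring centres lay within 50 kb of each other were joined, and a set of at least 3 was called a group. Arm 2L had 6 groups with 25 of its 50 strong regions (50.0%, Wilson interval 36.6 to 63.4), while the 4 other large arms together had 5 groups with 17 of 151 (11.3%, 7.15 to 17.3). The difference was 38.7 percentage points (Newcombe interval 24.1 to 52.7), an interval that takes strong regions as independent, which members of a group are not. By arm, 2R had 3 groups, 3L had 2, and 3R and X had 0, with 0 of 53 strong regions in groups on 3R (a share of up to 5.66% allowed) and 0 of 21 on X (up to 14.3% allowed). These limits equal 1 group of 3 regions and also take strong regions as independent. In both replicate lists 3R did have groups, as given below. The 6 groups spanned 324 kb, or 1.41% of the arm, and held 55.3% of the bases in its strong regions. The other 25 strong regions were 23 with no strong neighbour within 50 kb and 1 pair.

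**Figure D3:**
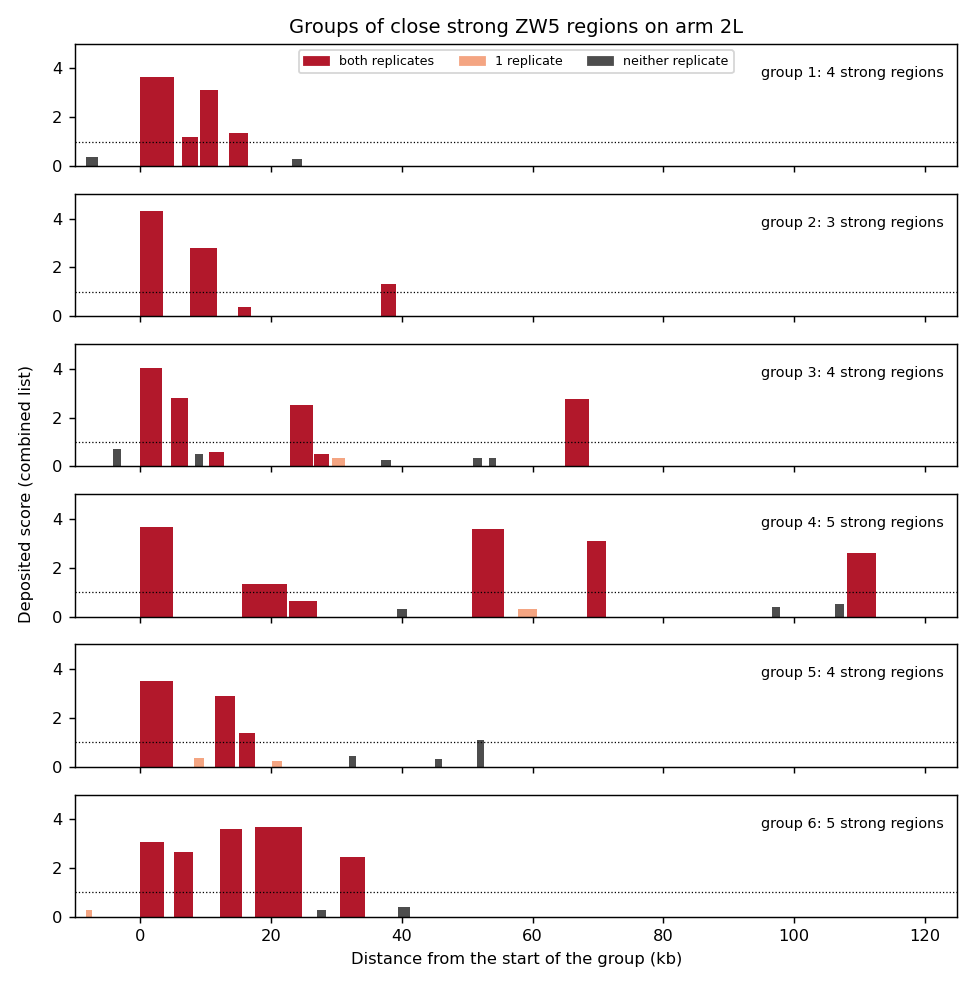
The 6 groups of close strong regions on arm 2L, from the telomere (top) to the centromere (bottom), with distance in kb from the start of each group; bars span each region, their height is its deposited score and their colour its overlap with the replicate lists. Of the 6 groups, 5 consist only of strong regions overlapped by both replicates; the fourth strong region of group 5 is narrow and overlapped by neither.

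The group nearest the telomere was also the most compact. It covered 1162386 to 1178862 (16477 bp) with 4 strong regions, which took up 81.0% of its length and had no weak region between them. From the telomere they scored 3.65 at 1162386 to 1167564, 1.19 at 1168780 to 1171244, 3.11 at 1171562 to 1174302 and 1.37 at 1175908 to 1178862, so that high and low scores alternated. Group 2, at 1971932 to 2011028, held the highest score of the arm, 4.32, then 2.80 at 1979516 to 1983618 and, farther off, 1.30 at 2008690 to 2011028. Group 3, at 4943782 to 5012468, began with 4.04 and went on with 2.81 at 4948440 to 4951134, 2.53 at 4966728 to 4970232 and 2.76 at 5008718 to 5012468. It held 7 weak regions among its strong ones.

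Group 4 was the longest, with 5 strong regions over 112481 bp from 11986428 to 12098908. After its first region, at 3.66, it had 1.33 at 12001986 to 12008794, 3.58 at 12037138 to 12042034, 3.08 at 12054768 to 12057600 and 2.61 at 12094576 to 12098908. Their centres lay 16.5 to 40.6 kb apart, and none of its centres was as close as the nearest ones of the other 5 groups. Group 5, at 12691474 to 12744092, had 3.51, then 2.91 at 12702920 to 12705970 and 1.39 at 12706546 to 12709030, and ended in the narrow region of 1.09 that neither replicate overlapped. Group 6, at 18675460 to 18709888, packed 5 strong regions into 34429 bp, of which they took up 61.1%. Its scores were 3.07 at 18675460 to 18679144, 2.66 at 18680624 to 18683480, 3.61 at 18687562 to 18691058, 3.65 at 18692994 to 18700148 and 2.45 at 18706044 to 18709888.

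Other definitions gave 3 to 6 groups on 2L, and 2L had more groups than the 4 other arms together under 6 of the 8 tried. Limited to strong regions overlapped by both replicates, 2L had 6 groups with 24 members and the other 4 arms had 2 groups with 6. With regions less than 1 kb apart merged first, 2L had 6 groups and the other arms 3. The list of replicate 1 alone gave 5 groups on 2L and 4 on the other arms together, of which 2, with 6 members, were on 3R. That of replicate 2 gave 6 on 2L and 3 on the others, of which 1, with 3 members, was on 3R. With a boundary of 1.5 in place of 1 the numbers were 3 on 2L and 2 on the others, with 12 members on 2L and 6 on the others. With centres allowed 100 kb apart they were 6 on 2L and 9 on the others, where 3R and X had 1 each. With a boundary of 0.8 they were 6 on 2L and 8 on the others, of which 1 was on X. With centres within 20 kb they were 4 on 2L and 3 on the others.

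Strong shared regions of 2L also had close neighbours of any score. Of the 42, 32 (76.2%, Wilson interval 61.5 to 86.5) had another region of the combined list less than 5 kb from an edge, against 254 of the 779 other regions of the arm (32.6%, 29.4 to 36.0). The difference was 43.6 percentage points (Newcombe interval 28.5 to 54.4). The median distance to the nearest region was 1819 bp for the 42 and 8967 bp for the 779. Of the 32 nearest neighbours, 12 were strong, 5 were weak and overlapped by both replicates, 8 were weak and overlapped by 1 replicate, and 7 were weak and overlapped by neither. Counting only neighbours that both replicates overlapped left 19 of the 42. The shortest such distance was 177 bp, between 4966728 to 4970232 and the weak region at 4970410 to 4972652, and 13 of the 42 had a neighbour less than 1 kb away. On the 4 other large arms 71 of 115 strong shared regions (61.7%) had a neighbour less than 5 kb off, and the difference from 2L had an interval that spanned 0 (14.5 percentage points, -2.48 to 28.2). By arm this share was 72.3% on 3R, 64.5% on 3L, 55.6% on 2R and 20.0% on X (2 of 10). Of the other regions of these 4 arms, 1635 of 3901 (41.9%) had such a neighbour, more than the 32.6% on 2L.

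Weak regions made up the rest of the arm. Of the 771, 28 were overlapped by both replicates (3.63%, Wilson interval 2.52 to 5.20), 52 by replicate 1 only, 97 by replicate 2 only and 594 by neither (77.0%). Weak regions overlapped by both had a median score of 0.447 and a median width of 2102 bp, those overlapped by neither 0.371 and 1181 bp. No weak region overlapped by both was narrower than 1793 bp, and of the 109 weak regions at least that wide these 28 were 25.7%. This width is that of the narrowest of the 28, so all 28 reach it by construction. On the 4 other large arms 2.33% of the weak regions were overlapped by both, 1.30 percentage points less than on 2L (Newcombe interval 0.0777 to 2.93). By arm this share was 2.73% on 2R, 2.54% on 3R, 2.20% on X and 1.77% on 3L, and each Wilson interval overlapped that of 2L. Across the 28 the replicate scores had a Spearman's rho of 0.0925 and a Pearson's r of 0.134, as a description. Their centres lay a median of 93.8 bp apart between the replicates, a distance already limited by overlap with the same region of the combined list. The strongest of the 28 was 6478974 to 6482292, at 0.878, and 8 of the 28 lay within 10 kb of a strong shared region, against 17 of the 594 overlapped by neither.

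Strong and weak regions together, 70 of the 821 (8.53%, Wilson interval 6.80 to 10.6) were overlapped by both replicates and 219 (26.7%, 23.8 to 29.8) by either, against 5.36% and 23.0% of the whole combined list. The 4 other large arms had 5.10% and 23.5%. The 2L shares were higher by 3.42 percentage points for both (Newcombe interval 1.55 to 5.63) and by 3.22 for either (0.0155 to 6.60). Among the 4 arms, 3R came nearest to 2L with 6.13% overlapped by both, and X was lowest with 3.27%.

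Weak and strong regions together were less dense on 2L than on 2R and 3R. Over its span from the first to the last region, 2L held 36.3 regions per Mb (95% exact Poisson interval 33.8 to 38.8) and the 4 other large arms 42.0 (40.7 to 43.3), a ratio of 0.863 (exact conditional interval 0.80 to 0.93). For strong regions the order was turned, with 2.21 per Mb on 2L (1.64 to 2.91) and 1.58 on the other arms (1.34 to 1.85), but the ratio of 1.40 had an interval that just included 1 (0.995 to 1.94). The strong density of 3R was 1.91 per Mb and that of 2R 1.86, both inside the interval of 2L. For all regions, the intervals of 3L (36.0 to 41.0) and X (37.1 to 42.3) overlapped that of 2L, while those of 2R and 3R did not. Regions covered 5.33% of the header length of 2L, against 5.34% of 3L, 5.43% of X, 6.29% of 2R and 6.73% of 3R. The median region was 1275 bp wide with a score of 0.373 on 2L, against 1257 bp and 0.389 on the other arms. By arm the median score was 0.374 on 3R, 0.381 on 3L, 0.382 on 2R and 0.440 on X.

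**Figure D4:**
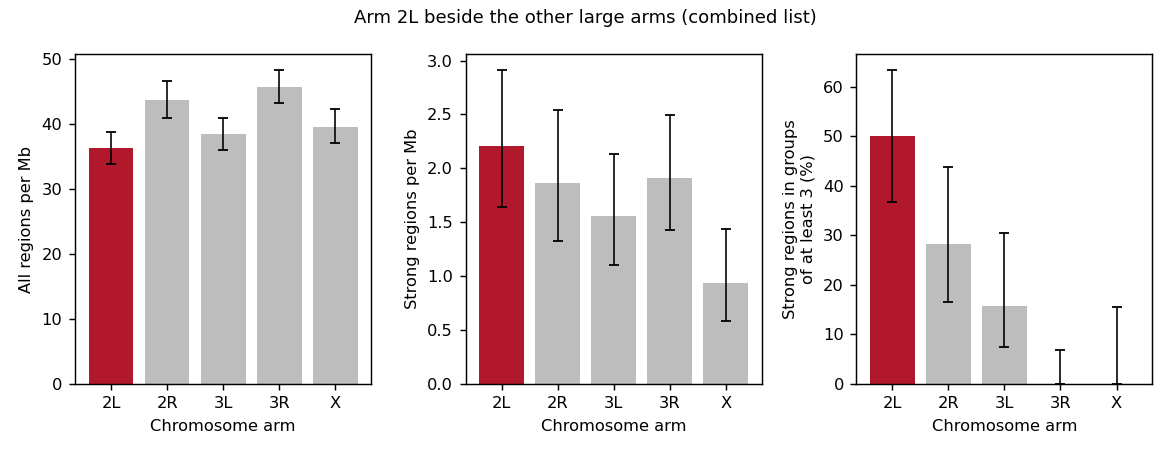
Arm 2L (red) beside 2R, 3L, 3R and X (grey) in the combined list: all regions per Mb, strong regions per Mb, and the share of strong regions in groups of at least 3 with neighbouring centres within 50 kb. Bars are the value for 1 arm with 95% exact Poisson intervals (left and middle) or Wilson intervals (right); 2L has 36.3 regions per Mb, 2.21 strong regions per Mb and 50.0% of its strong regions in groups.

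Along the arm, density was lowest beside the centromere, in the last 2 Mb. Divided into 4 equal lengths, in order from the telomere, the arm held 42.6, 35.5, 34.8 and 29.9 regions per Mb. The first exceeded the last by 1.42-fold, with intervals of 37.4 to 48.3 and 25.6 to 34.7 that did not overlap. This gap rested on the end of the arm: up to 21 Mb, the last length held 36.9 regions per Mb (exact Poisson interval 31.0 to 43.6), which overlapped that of the first. Split at the midpoint of its span, the arm held 449 regions on the telomere side (54.7%, Wilson interval 51.3 to 58.1) and 372 on the centromere side. With everything past 21 Mb left out and the midpoint moved to match, the telomere side held 419 of 787 (53.2%, interval 49.7 to 56.7), an interval that includes 50. Of the strong regions, 23 were on the telomere side (46.0%, interval 33.0 to 59.6) and 27 on the centromere side. The 4 lengths had 15, 8, 16 and 11 strong regions, in the same order. Either replicate overlapped 26.9%, 28.9%, 23.5% and 27.3% of their regions.

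In windows of 1 Mb the number of regions ran from 14 to 57 with a median of 35. The densest window, from 6 to 7 Mb, had 57 regions (57.0 per Mb, exact Poisson interval 43.2 to 73.9) but 1 strong one. The 3 windows with the most strong regions were 12 to 13 Mb with 10, 18 to 19 Mb with 7 and 1 to 2 Mb with 6, together 23 of the 50. Of the 23 windows, 5 had no strong region: those from 0, 3, 10, 17 and 19 Mb. Across windows, the count of all regions and that of strong regions were weakly related (Pearson's r 0.382, Spearman's rho 0.380, n = 23 windows of the same list). The counts of the 2 replicate lists went together more closely (r 0.825, rho 0.802). The window medians of score ran from 0.349 to 0.420 and those of width from 1122 to 1441 bp.

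**Figure D5:**
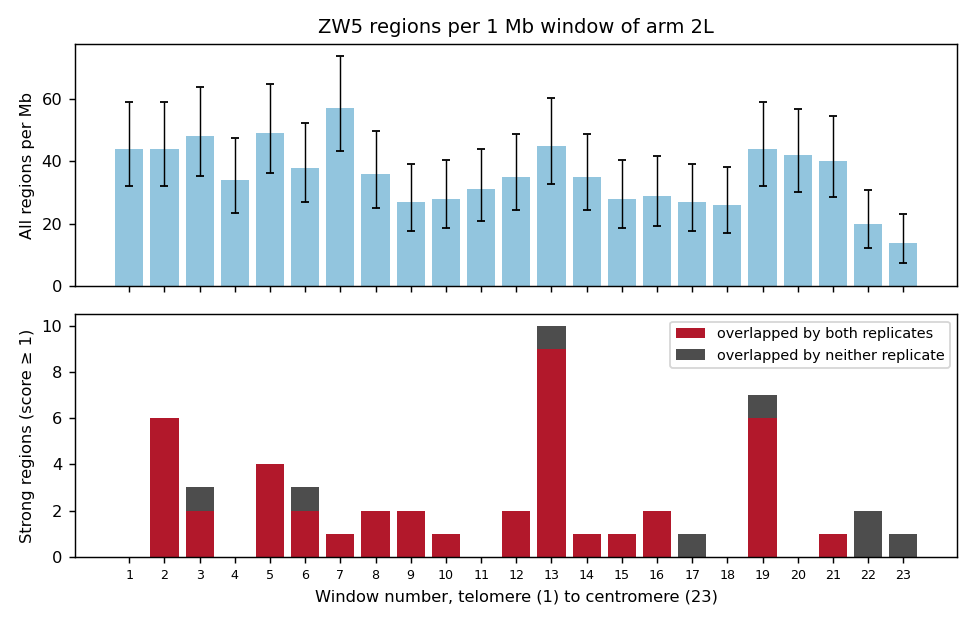
Regions of arm 2L in 23 windows of 1 Mb from the telomere to the centromere (the last is 1.01 Mb long): all regions per Mb with 95% exact Poisson intervals (top), and strong regions as counts, stacked by overlap with the replicate lists (bottom). Strong regions peak in windows 2, 13 and 19 with 6, 10 and 7, and the 3 strong regions of windows 22 and 23 are all overlapped by neither replicate.

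The end of the arm beside the centromere, where 2L passes into heterochromatin rich in repeats, held few regions and no strong one found in both replicates. Past 21 Mb there were 34 regions, 3 of them strong, and neither replicate overlapped any of these 3, which lay at 21048290 to 21049326, 21463582 to 21464942 and 22516440 to 22517602. The replicate lists had 3 (replicate 1) and 5 (replicate 2) regions there. The window from 21 to 22 Mb had 20 regions per Mb (exact Poisson interval 12.2 to 30.9), and the last one had 13.8 (7.57 to 23.2). The region nearest the centromere ended at 22686020, leaving 325524 bp to the end of the arm in the file headers without a region. At the other end, the first region started at 54896.

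This was the longest empty stretch of the arm, and the others were spread along it. The median distance between the edges of neighbouring regions, arm ends included, was 16.8 kb on 2L and 14.1 kb on the 4 other large arms. Stretches of at least 100 kb numbered 25 on 2L, or 10.9 per 10 Mb, and added up to 3.61 Mb, 15.7% of the arm. The 4 other arms had 9.79 per 10 Mb, from 6.81 on 3R to 12.6 on 3L. After the stretch at the centromere, the longest on 2L were 241003 bp from 17261561, 184247 bp from 15653401, 162573 bp from 3953113 and 156447 bp from 12535027. The first 2 of these 4 ended in weak regions on both sides, scoring 0.290 and 0.356 around the one from 17261561 and 0.434 and 0.463 around the one from 15653401. The one from 3953113 lay between weak regions of 0.375 and 0.365. The one from 12535027 lay between a weak region of 0.412 and the first strong region of group 5, at 3.51. In all, 2 of the 49 regions beside a stretch of at least 100 kb were strong (4.08%, Wilson interval 1.13 to 13.7), near the 6.09% of all regions on 2L.

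Stretches without strong regions reached Mb length. The longest ran for 2.13 Mb, from 16281399 to 18408049, and narrow strong regions that neither replicate overlapped stood at both its ends. Among strong regions overlapped by both replicates, the longest gap was 3.40 Mb, from 15274735 to 18675459, between the region of 1.49 at 15270836 to 15274734 and the start of group 6. No weak region overlapped by both replicates stood in that stretch either. The next was 2.35 Mb, from 20657719 to the end of the arm. Nearer the telomere, 1.81 Mb separated 2373412 to 2377290, with a score of 2.46, from 4186230 to 4189234, with 3.51.

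Wider regions were not in general stronger. Over all 821 regions Spearman's rho between score and width was -0.162, and over the 771 weak ones -0.348. Over the 42 strong regions overlapped by both replicates it was 0.213. These are descriptions across regions of 1 list, and both values come from the same signal.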

How the data were processed

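ZW5 ChIP-seq regions from 14 to 16 h Oregon-R embryos were analysed. The aligner was Bowtie 0.12.7 according to the submitters' processing notes. The authors deposited 3 lists of enriched regions, 1 for each of the 2 ChIP replicates and 1 combined, on FlyBase release 5, per the file headers. The labels name, for each input library, the ChIP list it was used with, which is that of the same number; they tie the numbers to no shared preparation. How regions were called and thresholded and how the combined list was made is not given in the sources. The score of each region is the value the authors deposited, with no stated scale. The combined list was used as pooled, without replicate error, and read depth is unknown.

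Regions of 2L were taken from the combined list by arm. Overlap means at least 1 bp, and a replicate's score is that of its region with the largest overlap. A score of 1, centres within 50 kb, sets of at least 3, stretches of 100 kb and windows of 1 Mb were the settings. Named regions are the 15 highest scores, all strong members of groups, the 5 highest scores without replicate overlap, the 5 longest empty stretches, the ends of the arm, the widest region and those beside the score boundary; the region of 1.49 bounding a gap, the lower-scoring weak regions beside strong ones and the replicate 2 regions were named after their values were seen. Members, settings and rule were chosen with earlier results of these data known. No p-value was computed: regions of 1 list are not replicates. Shares carry 95% Wilson, differences of shares Newcombe, densities exact Poisson and density ratios exact conditional intervals; a count of 0 is given with the share that 3 counts would make. Functions were tested on simulated data. Python 3.11.15, numpy 2.4.6, pandas 2.3.3, scipy 1.17.1, statsmodels 0.14.6 and matplotlib 3.10.9 were used. A release 6 gene table was left unused, as coordinates were not converted.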

Additional observations from a re-analysis of the deposited data

How the results depend on the processing

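Of 42 alternative values over 12 results, 21 stayed within the interval of the main value or, for counts, within 1.5 times of it, and 21 did not. Of the 42, 8 were added after the data were seen. A minimum width of 1301 bp, that of the narrowest region of either replicate, gave 17.4 regions per Mb, 10.9% strong, 17.8% overlapped by both replicates, 46.2% by either, 97.7% of the strong regions overlapped by both (added after the data were seen), 70 empty stretches, a median score of 0.347 and a median width of 1635 bp; this limit removes narrow regions by construction. The 2567 highest scores of the combined list gave 14.0 regions per Mb on 2L, 19.2% overlapped by both and 75 empty stretches, since fewer regions remain. Support from a single list was 14.9% to 20.3%, which follows from leaving a replicate out. With centres within 500 bp in place of overlap, 70.0% of the strong regions were supported by both, and the cause was not tested. A boundary of 1.5 gave 3 groups with 12 members, so the number of groups depended on the boundary. Groups 1, 2 and 5 fell below 3 members, as each had members that scored under 1.5. Empty stretches of at least 150 and 200 kb numbered 7 and 2, fewer by construction. Without the regions past 21 Mb, an alternative added after the data were seen, the last of 4 equal lengths of the arm held 36.9 regions per Mb, as its sparse end is left out. The telomere side held 46.0% of the strong regions and 60.0% of those overlapped by both. Counting only neighbours overlapped by both, added after the data were seen, left 19 strong shared regions with a close neighbour. Leaving out a replicate gave 5 to 6 groups; it leaves no value for overlap by both. No paired analysis was possible because no input library has a list of its own to set against the ChIP lists of the same number. As depth is unknown, no limit of detection can be given for weak regions.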

Other observations

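In the combined list, all 821 regions of 2L start and end at an even base, while both ends are even for 42 of the 134 regions of replicate 1 and 49 of the 191 of replicate 2. Scores in the combined list were often shared exactly: 396 of the 821 regions of 2L (48.2%) had a score equal to 9 decimals to that of another region of the list, and 1 value, 0.378, occurred 28 times over all scaffolds and 5 times on 2L. On the 4 other large arms 50.8% of the regions shared their score.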
